A study of Mus musculus with 8 samples.

Results

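Pyruvate metabolism and the tricarboxylic acid cycle were followed through 41 genes in left ventricles of mice with pressure overload on 2 diets. The genes were chosen by their place in the pathway, from the carrier that brings pyruvate into the mitochondrion to the shuttle that exchanges malate and aspartate. A gene was kept if it reached a deposited value of at least 1 in 2 or more libraries, and all 41 of the 41 named genes did so, among 16432 genes that passed and 49671 that were listed. Every mouse was a male C57BL/6N animal, 8 weeks old, and received either transverse aortic constriction (TAC), in which a narrowed aorta overloads the left ventricle, or a sham operation. The diets were a low fat diet called SFA and a diet called SFA-EAA, in which 93.5% of the casein had been exchanged for free essential amino acids. RNA was taken from the left ventricle 4 weeks after the operation. Each operation was combined with each diet, which gives 4 groups (sham or TAC on SFA, sham or TAC on SFA-EAA) of 2 libraries. Whether both libraries of a group stem from different mice is not in the labels, so a p-value here measures only the spread between libraries, which may be technical.

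Pyruvate made from glucose or lactate enters the mitochondrion through a carrier formed by the products of Mpc1 and Mpc2. The pyruvate dehydrogenase complex then turns it into acetyl-CoA, under the control of kinases (Pdk) that switch the complex off and phosphatases (Pdp) that switch it on. Citrate synthase passes acetyl-CoA into the cycle, whose dehydrogenases supply the respiratory chain with electrons, and the malate-aspartate shuttle moves electrons from NADH made in the cytosol into the mitochondrion. The heart draws most of its ATP from this machinery and feeds it mainly with fatty acids, and a shift of fuel use is well known in pressure overload.

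Summed over genes, a library held between 5136441 and 6298743 in deposited units, with between 14202 and 15844 genes at 1 or more. The libraries differed in base composition: across 10221 genes the deviation of a gene from its mean was negatively related to the GC content of its transcript in both sham SFA-EAA libraries and in TAC SFA-EAA replicate 2 (Spearman rho between -0.73 and -0.43), and positively in the other 5 (between 0.34 and 0.52). Every comparison is therefore given as deposited and again after subtracting from each library its own trend with GC content, after which the largest rho was 0.038 in size. TAC SFA-EAA replicate 1 resembled both sham SFA libraries more than its own partner by rank correlation over genes (0.98 with each, against 0.95). Cardiac muscle markers were high in all 8 libraries (12 genes, summed value 377867 to 491577). The atrial markers Myl7, Myl4, Sln and Bmp10, the last listed at 0 throughout, reached a sum of 1388 in the first sham SFA library and 1079.5 in the second TAC SFA library, while the other 6 lay between 9.81 and 92.1. In bulk tissue, fewer cells of a type and less RNA per cell cannot be told apart.

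Together the 41 genes held 2.06% to 2.47% of a library's deposited values. Per kilobase of exon length, averaged over the 8 libraries, the most abundant were Mdh1, the cytosolic malate dehydrogenase (5464), Idh2, the NADP-dependent mitochondrial isocitrate dehydrogenase (4629), Pdhb, the beta subunit of pyruvate dehydrogenase (2700), and Cs, citrate synthase (2657). The least abundant were the kinase Pdk3 (5.15), the malic enzyme Me2 (18.2) and the phosphatase Pdp2 (22.7). Among the kinases the order per kilobase was Pdk2 (616), Pdk4 (432), Pdk1 (137) and Pdk3. The libraries of Pdk2 and Pdk4 overlapped on that scale, since the ratio of Pdk4 to Pdk2 per kilobase ran from 0.389 in sham SFA replicate 2 to 1.23 in TAC SFA replicate 1. Of the isocitrate dehydrogenases, Idh2 stood 5.80 to 9.15 times as high per kilobase as Idh3a, the catalytic subunit of the NAD-dependent enzyme, in every library.

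The summed deposited value of the 41 genes was lowest in TAC SFA. It was 139245 and 139340 in the sham SFA libraries, 142614 and 151449 in sham SFA-EAA, 113357 and 112417 in TAC SFA and 135532 and 129534 in TAC SFA-EAA. Both TAC SFA libraries were the lowest of the 8, and no 2 groups overlapped in this sum. As a share of all deposited values the groups did overlap: the members held 2.09% and 2.19% in the TAC SFA libraries and 2.17% and 2.06% in those of TAC SFA-EAA, the last being the lowest of the 8, against 2.43% and 2.34% in sham SFA and 2.28% and 2.47% in sham SFA-EAA. As a share of the values outside the mitochondrially encoded genes they held 2.89% and 2.81% in the TAC SFA libraries, 3.27% and 3.40% in TAC SFA-EAA, 3.43% and 3.36% in sham SFA and 3.64% and 3.78% in sham SFA-EAA. On that scale TAC SFA was again the lowest group, and TAC SFA-EAA overlapped sham SFA. The share of mitochondrially encoded genes themselves was 22.1% to 30.3% in the 4 SFA libraries and 33.6% to 39.5% in the 4 SFA-EAA libraries.

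**Figure D1:**
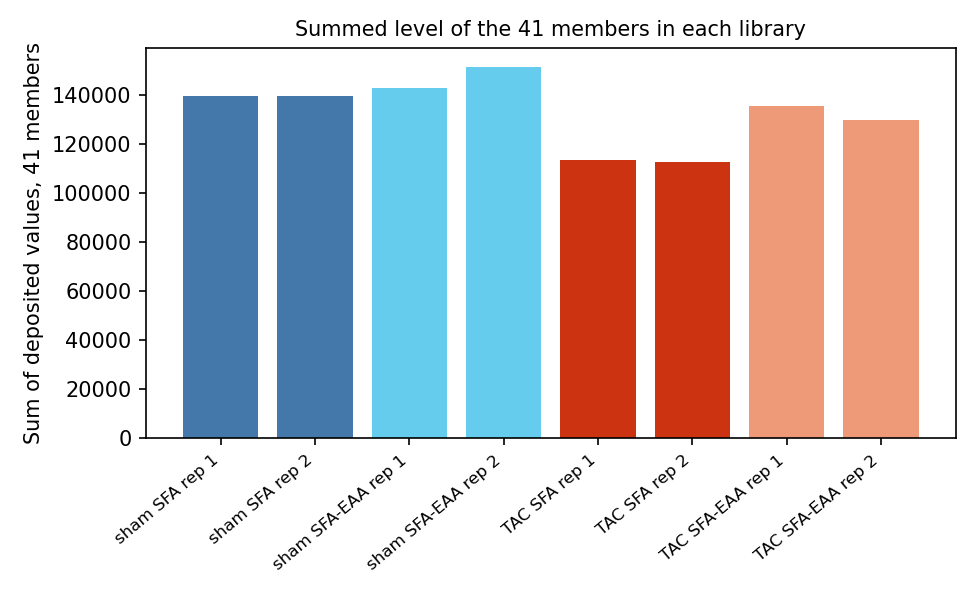
Sum of the deposited values of the 41 genes (vertical axis, deposited normalized units) in each of the 8 libraries (horizontal axis, coloured by group). The TAC SFA bars, at 113357 and 112417, are the shortest, and the sham SFA-EAA bars, at 142614 and 151449, the tallest.

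**Figure D2:**
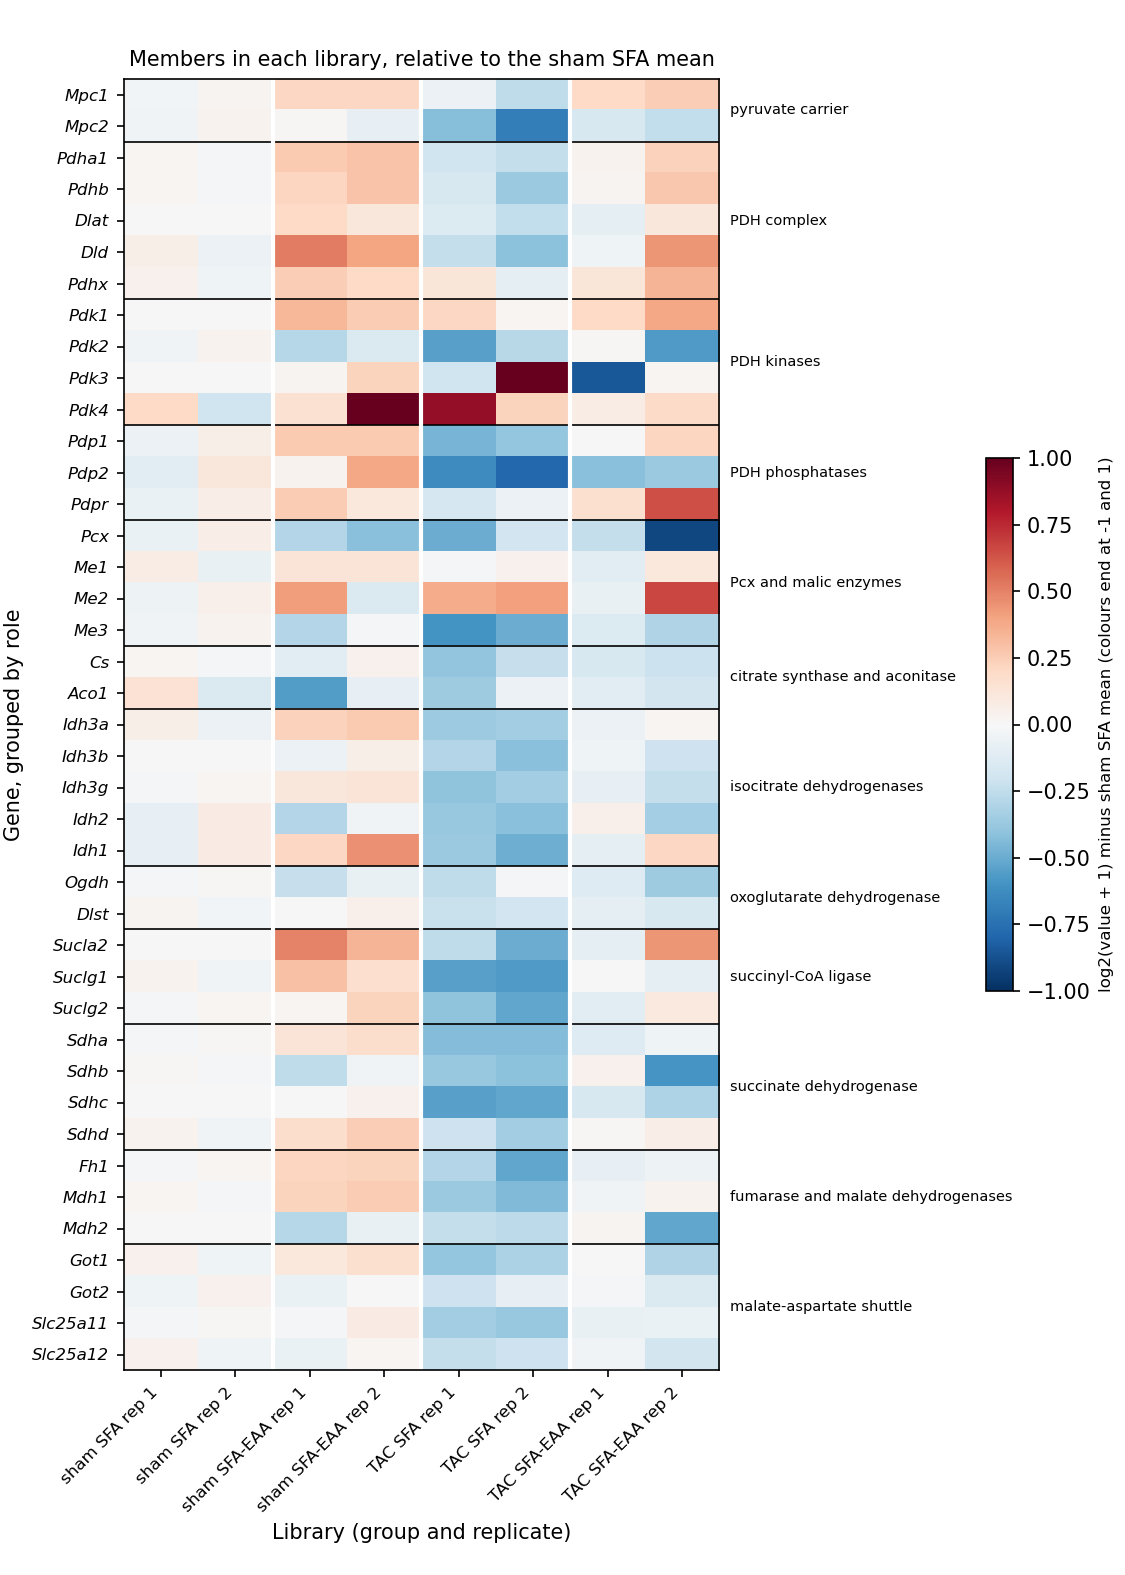
Log2(value + 1) of each of the 41 genes minus its sham SFA mean (colour, blue lower and red higher, with colours ending at -1 and 1), with genes in rows by role and libraries in columns. The TAC SFA columns are blue for most rows, the rows of Pdk3 and Pdk4 differ within groups, and TAC SFA-EAA replicates 1 and 2 differ from each other in Pdk2, Sdhb and Mdh2.

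The first comparison asked what TAC did to these genes in mice on the SFA diet. Most of them stood lower in TAC hearts: 35 of 41 had a negative log2 fold change, with a median of -0.34 (all genes tested, 0.01), and in 32 of 41 both TAC libraries lay under both sham libraries, against 23.1% of all genes. By limma with Benjamini-Hochberg adjustment over all 16432 genes, 1 of the 41 fell, the succinyl-CoA ligase subunit Suclg1, and none rose, where 1.25% of all genes were called in either direction, 0.414% lower and 0.834% higher. With GC-corrected values 14 of 41 (34.1%) fell and none rose, where 5.02% of all genes were called in either direction, 2.6% lower and 2.42% higher. The 14 were Mpc2, Pdk2, Pdp2, Me3, Idh3a, Idh3g, Idh2, Suclg1, Suclg2, Sdha, Sdhc, Fh1, Mdh1 and Got1, and their GC-corrected log2 fold changes lay between -0.72 and -0.37. As deposited no member was called without any 1 of the sham or TAC SFA libraries, and more were called without either TAC SFA-EAA library. With GC-corrected values no member was called without either sham SFA library. Fewer were called without either sham SFA-EAA or TAC SFA library, and more without either TAC SFA-EAA library. The share of all genes called went down and up in the same cases, as deposited and with GC-corrected values. With 1 library left out the median ran from -0.35 to -0.29 as deposited and from -0.37 to -0.29 with GC-corrected values.

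At the entry of pyruvate, Mpc2 fell under SFA with GC-corrected values, and Mpc1 was not called on either scale. Mpc2 (ENSMUSG00000026568, GRCm38 chromosome 1, 165460637 to 165481214, plus strand) stood at 1484 and 1558 in sham SFA, 1536 and 1434 in sham SFA-EAA, 1131 and 941 in TAC SFA and 1364 and 1281 in TAC SFA-EAA. Both TAC SFA libraries were below the other 6. Its log2 fold change under SFA was -0.56 (SE 0.12, limma adjusted p = 0.0685 as deposited and 0.0211 with GC-corrected values). Mpc1 stood at 1222 and 1262 in sham SFA, 1437 and 1432 in sham SFA-EAA, 1189.8 and 1044 in TAC SFA and 1428 and 1473 in TAC SFA-EAA. Its TAC SFA libraries were the lowest of the 8, close below sham SFA, and both SFA-EAA groups lay above both SFA groups. Mpc1 has a pseudogene, Mpc1-ps, listed at 18.9% of its level, so reads may be split between the 2 and the value of Mpc1 is uncertain.

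The 5 genes of the pyruvate dehydrogenase complex gave log2 fold changes of -0.33 to 0.02 under SFA, and none was called as deposited or with GC-corrected values. Dld encodes the dihydrolipoamide dehydrogenase that this complex shares with oxoglutarate dehydrogenase. It stood at 2896 and 2670.1 in sham SFA, 3957 and 3664 in sham SFA-EAA, 2353 and 2091 in TAC SFA and 2703 and 3786 in TAC SFA-EAA. The TAC SFA libraries were the lowest, and the 2 TAC SFA-EAA libraries lay far apart. Pdhx, the component that anchors Dld's product, was the 1 member of the complex without a negative value (log2 fold change 0.02, SE 0.12).

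Of the 4 kinase genes, only Pdk2 was called under SFA, lower and with GC-corrected values only. Pdk2 (ENSMUSG00000038967, chromosome 11, 95026258 to 95041354, minus strand), the most abundant kinase in these hearts, stood at 2192 and 2309 in sham SFA, 1848 and 2039 in sham SFA-EAA, 1542 and 1857 in TAC SFA and 2273 and 1522 in TAC SFA-EAA. The TAC SFA libraries lay below sham SFA, while the TAC SFA-EAA libraries were the second highest and the lowest of all 8. Its log2 fold change under SFA was -0.41 (SE 0.18, adjusted p = 0.377) as deposited and -0.45 (SE 0.09, adjusted p = 0.0135) with GC-corrected values. Pdk4 (ENSMUSG00000019577, chromosome 6, 5483351 to 5496309, minus strand), the kinase known to be induced by fasting and fatty acids, stood at 1315 and 998 in sham SFA, 1271 and 2576 in sham SFA-EAA, 2110.2 and 1339 in TAC SFA and 1208 and 1307 in TAC SFA-EAA. One library each of sham SFA-EAA and TAC SFA was high, and its partner was near the rest. The log2 fold change under SFA was 0.55 (SE 0.32, adjusted p = 0.515), and it was not called in any of the 6 comparisons.

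Pdk1 stood at 945 and 939 in sham SFA, 1186 and 1127 in sham SFA-EAA, 1085 and 957 in TAC SFA and 1082 and 1231 in TAC SFA-EAA. It was lowest in sham SFA, with a log2 fold change of 0.11 (SE 0.12) under TAC. Pdk3 was by far the least abundant kinase, at 12.1 and 11.9 in sham SFA, 12.2 and 14.1 in sham SFA-EAA, 10.3 and 26.5 in TAC SFA and 6.22 and 12.1 in TAC SFA-EAA. Its extremes both came from TAC hearts, and no difference was called. Of the phosphatase genes, Pdp2 (ENSMUSG00000048371, chromosome 8, 104591451 to 104599026, plus strand) stood at 135 and 158 in sham SFA, 149 and 191 in sham SFA-EAA, 94.0 and 84.3 in TAC SFA and 109 and 113 in TAC SFA-EAA. All 4 TAC libraries were below all 4 sham libraries. It had the most negative log2 fold change of the 41 under SFA, -0.71 (SE 0.18, adjusted p = 0.104 as deposited and 0.0276 with GC-corrected values), a level 38.7% lower as deposited. Pdp1, the other catalytic phosphatase, and Pdpr, their regulatory subunit, gave log2 fold changes of -0.43 and -0.12 and were not called.

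**Figure D3:**
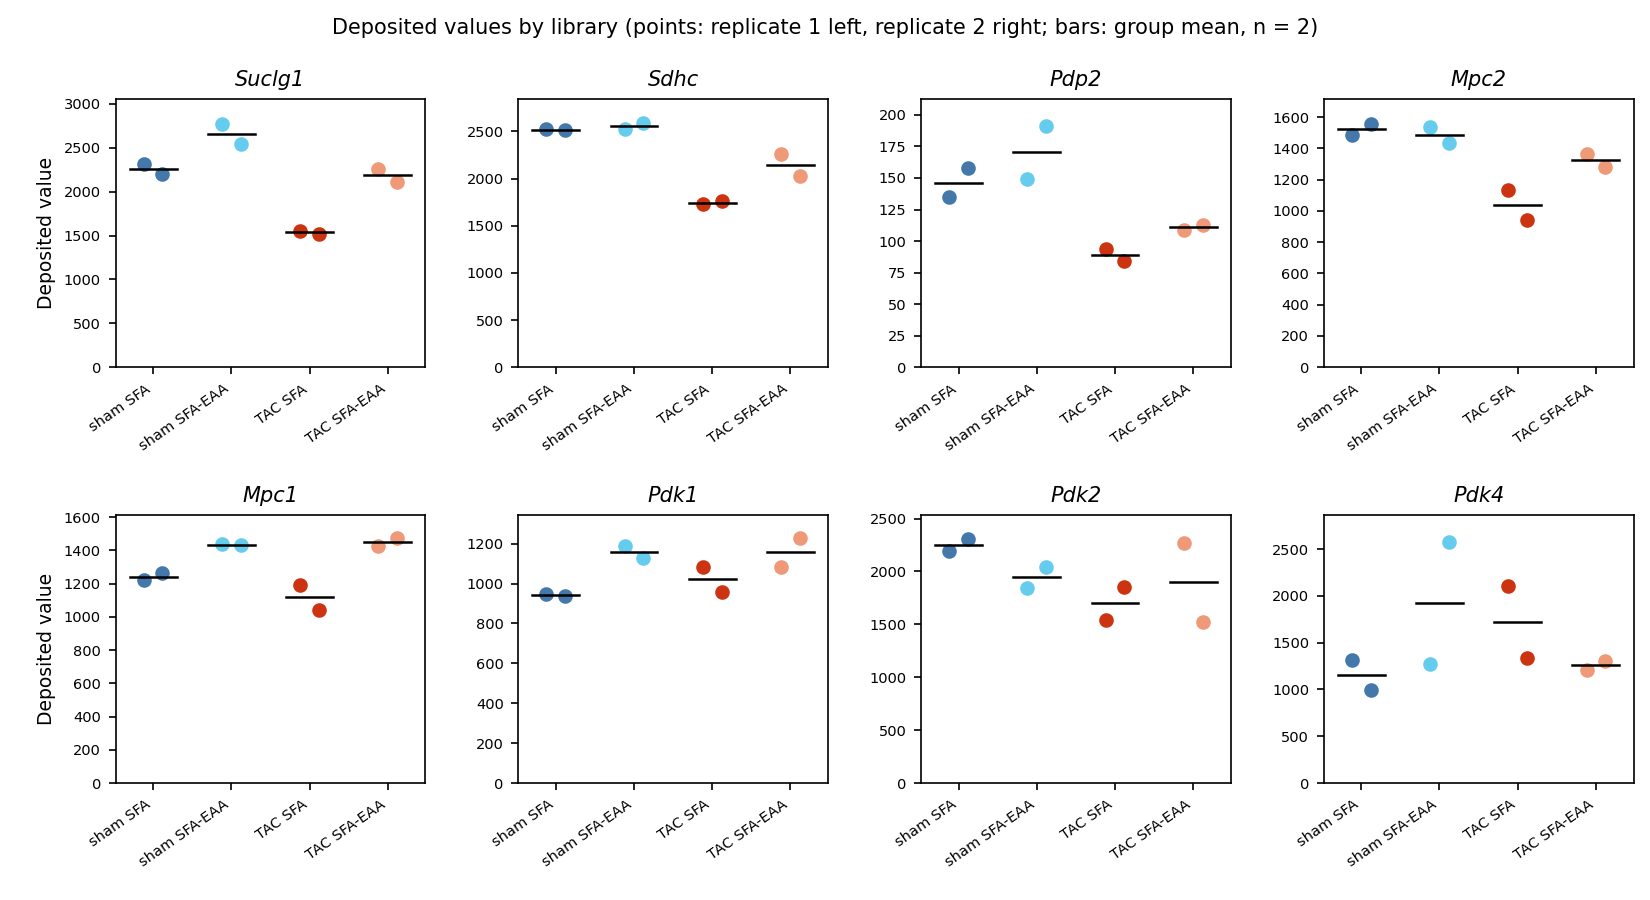
Deposited values (vertical axes, from 0, deposited normalized units) of 8 genes in the 4 groups (horizontal axes), with 1 point per library and a bar at the mean of 2. In the panels of Suclg1, Sdhc and Mpc2 both TAC SFA points lie below the other 6, all 4 TAC points of Pdp2 lie below the sham points, and the points of Pdk4 scatter within sham SFA-EAA (1271 and 2576) and TAC SFA (2110.2 and 1339).

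None of the genes of citrate synthase, cytosolic aconitase and oxoglutarate dehydrogenase was called. Cs, which condenses acetyl-CoA with oxaloacetate, stood at 8317 and 8086 in sham SFA, 7603 and 8453 in sham SFA-EAA, 6249.6 and 7008 in TAC SFA and 7352 and 7054 in TAC SFA-EAA. All 4 TAC libraries were below all 4 sham libraries, with a log2 fold change of -0.31 (SE 0.12) under SFA that was not called. Dlst, the succinyltransferase of the oxoglutarate dehydrogenase complex, stood at 3943 and 3801 in sham SFA, 3851 and 4005 in sham SFA-EAA, 3317 and 3384 in TAC SFA and 3624 and 3464 in TAC SFA-EAA. Again all 4 TAC libraries were below all 4 sham libraries, and TAC SFA was lowest. Ogdh, which encodes the first enzyme of that complex, overlapped between TAC and sham (log2 fold change -0.13), as did the cytosolic aconitase Aco1 (-0.21).

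All 5 isocitrate dehydrogenase genes had both TAC SFA libraries below both sham SFA libraries, with log2 fold changes of -0.43 to -0.35. None was called as deposited, and Idh3a, Idh3g and Idh2 fell with GC-corrected values. Idh3a stood at 3287 and 3039.7 in sham SFA, 3709 and 3799 in sham SFA-EAA, 2461 and 2487 in TAC SFA and 3031 and 3199 in TAC SFA-EAA. Its regulatory partner Idh3g (ENSMUSG00000002010, X chromosome, 73778963 to 73786897, minus strand) stood at 2664 and 2746 in sham SFA, 2921 and 2950.0 in sham SFA-EAA, 2047 and 2130.4 in TAC SFA and 2552 and 2296 in TAC SFA-EAA. In both subunits TAC SFA was the lowest group and sham SFA-EAA the highest. Idh2 (ENSMUSG00000030541, chromosome 7, 80094846 to 80115392, minus strand) stood at 12705 and 14199 in sham SFA, 10973 and 13089.6 in sham SFA-EAA, 10304 and 10033 in TAC SFA and 13913 and 10611 in TAC SFA-EAA. Its TAC SFA libraries were the lowest, with TAC SFA-EAA replicate 2 close above them. GC-corrected log2 fold changes under SFA were -0.37 (SE 0.09, adjusted p = 0.0299) for Idh3a, -0.39 (SE 0.09, adjusted p = 0.0228) for Idh3g and -0.43 (SE 0.11, adjusted p = 0.0494) for Idh2.

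Succinyl-CoA ligase, the step that makes ATP or GTP directly in the cycle, held the 1 member called as deposited. Suclg1, the alpha subunit common to both forms of the enzyme (ENSMUSG00000052738, chromosome 6, 73248382 to 73276911, plus strand), stood at 2311 and 2199.5 in sham SFA, 2767 and 2537 in sham SFA-EAA, 1550.3 and 1521 in TAC SFA and 2260.4 and 2111 in TAC SFA-EAA. The TAC SFA libraries lay well apart from the other 6. Suclg1 fell by 0.55 on the log2 scale under SFA (SE 0.11), a level 31.9% lower, with an adjusted p of 0.0481 as deposited and 0.00914 with GC-corrected values. The call was near the threshold: its adjusted p was 0.0539 with a pseudocount of 0.25 or with no filter, 0.0544 with quantile normalization, and 0.109 to 0.359 without any 1 of the sham SFA, sham SFA-EAA and TAC SFA libraries, within a range of 0.00136 to 0.359 over all alternatives. With GC-corrected values it was 0.0968 and 0.0998 without the first and second sham SFA library and 0.0695 without TAC SFA replicate 2. Suclg2, the beta subunit of the GTP-forming enzyme, stood at 946 and 974 in sham SFA, 973 and 1119.7 in sham SFA-EAA, 726 and 669 in TAC SFA and 887 and 1029 in TAC SFA-EAA. It too was lowest in TAC SFA and fell with GC-corrected values (log2 fold change -0.47, SE 0.10, adjusted p = 0.0211). Sucla2, the beta subunit of the ATP-forming enzyme, had a log2 fold change of -0.37 and was not called.

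Succinate dehydrogenase, the enzyme that is also complex II of the respiratory chain, had all 4 of its subunit genes lower in both TAC SFA libraries than in both sham SFA libraries. Sdha, the flavoprotein (ENSMUSG00000021577, chromosome 13, 74322254 to 74350280, minus strand), stood at 9060.2 and 9224 in sham SFA, 9987 and 10351 in sham SFA-EAA, 6753 and 6774 in TAC SFA and 8342 and 8864 in TAC SFA-EAA. The 4 groups did not overlap. Sdhc, a membrane anchor (ENSMUSG00000058076, chromosome 1, 171127165 to 171150603, minus strand), stood at 2522 and 2518 in sham SFA, 2523 and 2589.7 in sham SFA-EAA, 1732 and 1759 in TAC SFA and 2259 and 2029.8 in TAC SFA-EAA. The sham libraries were close together, TAC SFA-EAA lay below them and TAC SFA lowest. Under SFA the log2 fold change of Sdhc was -0.53 (SE 0.11, adjusted p = 0.0528 as deposited and 0.00566 with GC-corrected values), and that of Sdha -0.43 (SE 0.12, adjusted p = 0.127 and 0.0179).

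Sdhd, the other anchor (ENSMUSG00000000171, chromosome 9, 50596357 to 50603812, minus strand), stood at 2928 and 2803 in sham SFA, 3245 and 3393 in sham SFA-EAA, 2475 and 2253 in TAC SFA and 2884 and 2996 in TAC SFA-EAA. TAC SFA was lowest, while TAC SFA-EAA overlapped sham SFA. Sdhb, the iron-sulfur subunit, ranged from 3055 in TAC SFA-EAA replicate 2 to 4730.0 in replicate 1 of the same group, so that its 2 libraries spanned the whole range of the series. Fh1, fumarase, stood at 2729.9 and 2802 in sham SFA, 3218 and 3230.2 in sham SFA-EAA, 2263 and 1934 in TAC SFA and 2613 and 2665 in TAC SFA-EAA. Mdh1 stood at 14434 and 14061 in sham SFA, 16658 and 16972 in sham SFA-EAA, 11032 and 10496 in TAC SFA and 13925 and 14637 in TAC SFA-EAA. Both genes were lowest in TAC SFA and highest in sham SFA-EAA, and both fell under SFA with GC-corrected values (log2 fold changes -0.42 and -0.41, SE 0.10 each). The mitochondrial malate dehydrogenase Mdh2 had a log2 fold change of -0.25 and was not called.

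In the malate-aspartate shuttle and the side reactions of pyruvate, Got1 and Me3 fell with GC-corrected values. Got1, the cytosolic aspartate aminotransferase, stood at 4470.3 and 4229 in sham SFA, 4669.7 and 4863 in sham SFA-EAA, 3332 and 3486 in TAC SFA and 4344 and 3538 in TAC SFA-EAA. Slc25a11, the oxoglutarate carrier of the shuttle (ENSMUSG00000014606, chromosome 11, 70644196 to 70647479, minus strand), stood at 3379 and 3432 in sham SFA, 3387 and 3612 in sham SFA-EAA, 2673 and 2621 in TAC SFA and 3243 and 3247 in TAC SFA-EAA. Its TAC SFA libraries were below all others, but under TAC with SFA it was not called on either scale. Me3, a mitochondrial malic enzyme that forms pyruvate from malate, stood at 539 and 565 in sham SFA, 452 and 544 in sham SFA-EAA, 365 and 392 in TAC SFA and 503 and 448 in TAC SFA-EAA. TAC SFA was again the lowest group (log2 fold change -0.54, SE 0.13, adjusted p = 0.0953 as deposited and 0.0254 with GC-corrected values). Me2, near the low end of the range at 34.3 to 60.9, had a positive log2 fold change (0.39, SE 0.30) that was not called, and Me1 gave 0.02. Pyruvate carboxylase, Pcx, which makes oxaloacetate from pyruvate, overlaps Lrfn4 on the opposite strand, a gene listed at 23.1% of its level. Slc25a11 overlaps Rnf167 on the opposite strand (6.78%) and Idh3b overlaps Nop56 (2.64%). No source used here says whether counting used strand, so reads of such pairs may be mixed.

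Under the SFA-EAA diet the same operation gave smaller differences, and no member was called. Again 35 of 41 log2 fold changes were negative, with a median of -0.14 (all genes tested, 0.00), and in 19 of 41 both TAC libraries lay below both sham libraries, against 18% of all genes. As deposited limma called 0 members and 0.0122% of all genes, with 6 members and 1408 of 16432 genes at an unadjusted p under 0.05. With GC-corrected values it was also 0 members and 0.207% of all genes, with a median of -0.16. An unadjusted p under 0.05 was then found for 9 members and 1882 of 16432 genes. Pdp2 had the smallest p of the 41 on both scales, with a log2 fold change of -0.605 (SE 0.18, adjusted p = 0.424) as deposited, beside -0.71 under SFA. Suclg1 gave -0.28 (SE 0.11, adjusted p = 0.515), Sdhc -0.26 (SE 0.11), Mpc2 -0.17 (SE 0.12), Me3 -0.06 (SE 0.13) and Idh2 0.02 (SE 0.17).

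Whether the effect of TAC depended on the diet was tested directly as an interaction. The difference between the effects, SFA-EAA minus SFA, was positive in 35 of 41 members, with a median of 0.14 on the log2 scale (all genes tested, 0.00). Limma called 0 of 41 members and 0% of all genes, with 3 members and 902 of 16432 genes at an unadjusted p under 0.05. Those 3 were Me3 (0.48, SE 0.19, adjusted p = 0.878), Pdk4 (-1.08, SE 0.45, adjusted p = 0.878) and Mpc2 (0.39, SE 0.17, adjusted p = 0.878). With GC-corrected values 0 members were called, and 6 members and 1318 of 16432 genes had an unadjusted p under 0.05. The 2 effects were therefore not shown to differ for any single member.

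**Figure D4:**
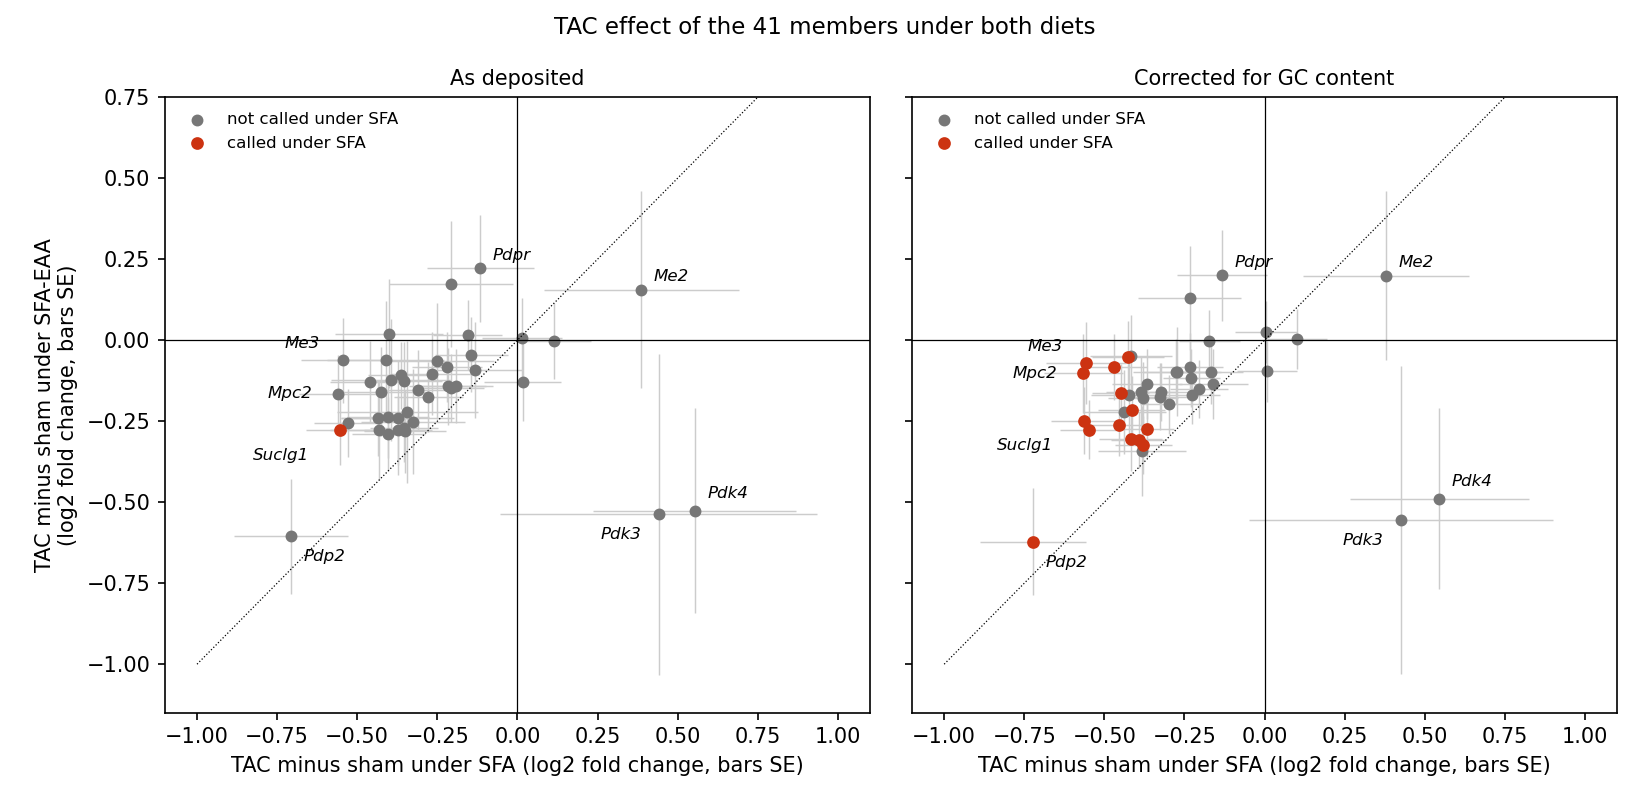
Log2 fold change of TAC against sham under SFA (horizontal axis) and under SFA-EAA (vertical axis) for the 41 genes, as deposited (left) and with GC-corrected values (right). Grey bars are standard errors, red points are genes called under SFA and the dotted line marks equal effects. Most points lie left of 0 and above the dotted line, Pdp2 lies near the line, and Pdk3 and Pdk4 are positive under SFA and negative under SFA-EAA.

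Averaged over both diets, 3 members fell with TAC as deposited: Pdp2 (log2 fold change -0.66, SE 0.13, adjusted p = 0.0357), Suclg1 (-0.42, SE 0.08, adjusted p = 0.0292) and Sdhc (-0.39, SE 0.07, adjusted p = 0.0357). In Pdp2 and Sdhc all 4 TAC libraries were below all 4 sham libraries, and in Suclg1 the TAC SFA-EAA and sham SFA libraries overlapped. None rose, and 2.11% of all genes were called in either direction, 0.73% lower and 1.38% higher. The median of the 41 was -0.24 (all genes tested, 0.01), and in 9 members all 4 TAC libraries lay below all 4 sham libraries, against 2.75% of all genes. With GC-corrected values 14 of 41 fell, and none rose, where 6.19% of all genes were called in either direction, 3.15% lower and 3.04% higher. Of these 14, 12 were among the 14 that fell under SFA, and Dld (-0.24, SE 0.06, adjusted p = 0.0454) and Sdhd (-0.25, SE 0.06, adjusted p = 0.0440) came in addition. These comparisons share libraries, so the second count is no separate evidence for the first. As deposited no member was called without any 1 of the sham or TAC SFA libraries, and more were called without either TAC SFA-EAA library. The share of all genes called went down and up in the same cases. With GC-corrected values fewer members were called without any 1 of the sham or TAC SFA libraries. More were called without TAC SFA-EAA replicate 1 and as many without its partner. The share of all genes called was lower, higher and nearly the same in these cases. With 1 library left out the median ran from -0.26 to -0.20 as deposited and from -0.26 to -0.22 with GC-corrected values.

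Of the 250 bases before the RefSeq start site (GRCm38.p6), 37 of the 41 members had an entry, and Idh3a, Sdhc, Pdp1 and Me2 had none. Both strands were searched for 4 motifs of factors known for mitochondrial genes. The extended binding motif of the estrogen-related receptors, TNAAGGTCA, was in 0 of 37 member promoters and in 1.14% of 27025 promoters, and the PPAR DR1 element in 0 and 0.037%. The NRF1 palindrome was in 3 (8.11%; Sdhd, Sdha and Sucla2) against 3.86%, and the GABP motif CCGGAAG in 3 (8.11%; Sdhd, Mpc1 and Idh3g) against 7.05%. In 6 members another gene starts inside the same 250 bases on the opposite strand: Idh1 with Pikfyve, Idh3g with Ssr4, Pdhx with Apip, Sdha with Ccdc127, Sdhd with Timm8b and Slc25a11 with Rnf167. Shown here are the stretches outside any listed gene for Suclg1, the member called under SFA as deposited, and for Idh3g and Sdhd, which have such a neighbour and hold a GABP motif. They run 5′ to 3′ on the strand of the gene, and capitals mark the GABP motif, as CCGGAAG or its complement. The first is chr6:73248255-73248381 on the plus strand (127 bases), the second chrX:73786898-73787027 on the minus strand (130 bases) and the third chr9:50603850-50603909 on the minus strand (60 bases), and the 250 bases of Suclg1 hold none of the 4 motifs. A match is a run of letters, not a measured binding site.
Suclg1: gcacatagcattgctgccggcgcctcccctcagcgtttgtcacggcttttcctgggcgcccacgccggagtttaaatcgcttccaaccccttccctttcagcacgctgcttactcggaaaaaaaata
Idh3g: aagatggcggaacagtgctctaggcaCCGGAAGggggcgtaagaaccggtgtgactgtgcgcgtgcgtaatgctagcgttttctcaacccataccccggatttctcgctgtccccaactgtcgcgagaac
Sdhd: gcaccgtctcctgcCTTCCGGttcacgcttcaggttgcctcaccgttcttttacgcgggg

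The next comparison asked what the SFA-EAA diet did. In sham hearts 28 of 41 members were higher on SFA-EAA, with a median log2 fold change of 0.13 (all genes tested, -0.01), and in 22 both SFA-EAA libraries lay above both SFA libraries, against 27.6% of all genes. Limma called 0 members and 0% of all genes, with 5 of 41 members and 2437 of 16432 genes at an unadjusted p under 0.05. Pdk4 had the most positive value (0.66, SE 0.32, adjusted p = 0.360), with overlapping libraries, followed by Dld (0.45, SE 0.16, adjusted p = 0.280) and Sucla2 (0.42, SE 0.18, adjusted p = 0.325). Pcx (-0.35) and Aco1 (-0.32) had the most negative values. Across the 41 members the diet difference in sham hearts followed GC content, with a Spearman rho of -0.70. Members poor in GC, such as Pdp1 (39.2% GC) and Dld (40.6%), were higher on SFA-EAA, and members rich in GC, such as Pcx (57.7%) and Pdk2 (56.9%), were lower. After the correction rho was 0.27 and the median 0.13, 0 members were called, 0.0304% of all genes were called, and the value of Pdk2 went from -0.21 to 0.22, that of Pcx from -0.35 to 0.14 and that of Pdp1 from 0.26 to -0.10. The 41 points share their libraries, so this rho describes the libraries. As deposited 2 of 41 members were called, both higher, without TAC SFA-EAA replicate 1 or without replicate 2, where 7.3% and 7.24% of all genes were called in either direction and 2.26% and 2.15% higher.

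**Figure D5:**
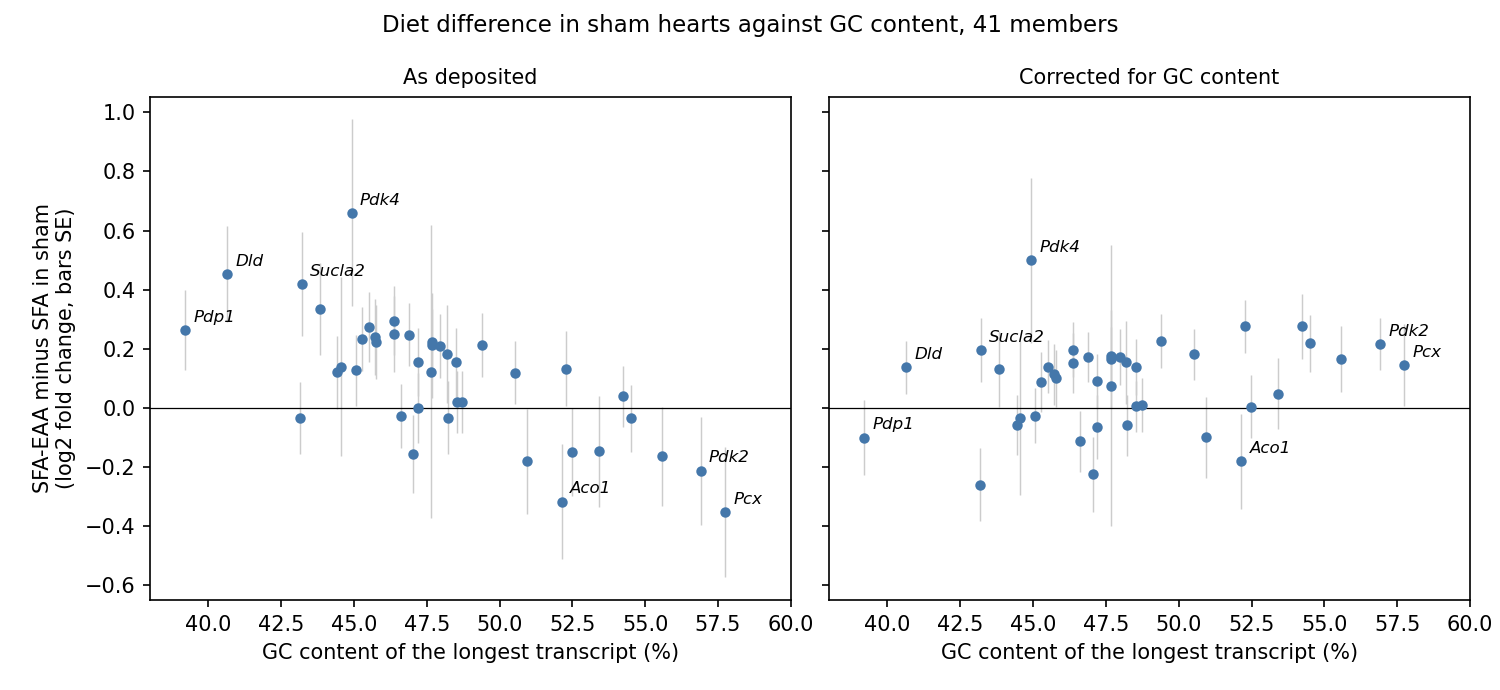
Log2 fold change of SFA-EAA against SFA in sham hearts (vertical axis, grey bars are standard errors) against the GC content in percent of each gene's longest transcript (horizontal axis) for the 41 genes, as deposited (left) and after the GC correction (right). As deposited the points descend from Dld and Pdp1 to Pcx and Pdk2, and after the correction Pdk2 and Pcx lie above 0.

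In TAC hearts 35 of 41 members were higher on SFA-EAA, with a median log2 fold change of 0.26 (all genes tested, -0.03), and in 28 both SFA-EAA libraries lay above both SFA libraries, against 21.7% of all genes. As deposited limma called 0 members and 0.0487% of all genes, with 19 members and 2476 of 16432 genes at an unadjusted p under 0.05. With GC-corrected values 3 members rose, where 1.95% of all genes were called in either direction and 1.18% higher. These were Pdk2 (0.50, SE 0.09, adjusted p = 0.0191), Idh2 (0.54, SE 0.11, adjusted p = 0.0344) and Slc25a11 (0.50, SE 0.11, adjusted p = 0.0419), whose values as deposited were 0.14 (SE 0.18), 0.26 (SE 0.17) and 0.29 (SE 0.10). Their GC content was 56.9%, 55.6% and 54.2%, above that of most members (median 47.7%). The smallest p as deposited belonged to Suclg1 (0.51, SE 0.11, adjusted p = 0.118), followed by Pdp1 (0.53, SE 0.14, adjusted p = 0.151) and Suclg2 (0.45, SE 0.12, adjusted p = 0.165). Pdk4 was lower on SFA-EAA in both libraries (-0.42, SE 0.32, adjusted p = 0.565). This comparison uses the same TAC SFA libraries as the comparison of TAC with sham under SFA, so low values in those 2 libraries enter both. Without TAC SFA-EAA replicate 1, the library that resembled sham SFA, the group rests on replicate 2 alone. That library had the strongest trend with GC content of the 8 (rho -0.73). As deposited the median was then 0.28 and the value of Pdk2 -0.15, and more members and more of all genes were called. With GC-corrected values the median was 0.23 without replicate 1 and 0.28 without replicate 2. More members and more of all genes were called without replicate 1. Fewer members were called without any 1 of the sham or TAC SFA libraries. The share of all genes called was then also lower, save without TAC SFA replicate 1.

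Ratios between paired genes (2 kinases, the beta subunits of the 2 succinyl-CoA ligases, the NADP-dependent and NAD-dependent isocitrate dehydrogenase, and the 2 parts of the pyruvate carrier) were compared over 4 libraries against 4, by an exact two-sided permutation test over 70 assignments, whose smallest possible p is 0.0286. Per kilobase, Mpc2 to Mpc1 was 0.344 and 0.350 in sham SFA, 0.303 and 0.284 in sham SFA-EAA, 0.269 and 0.255 in TAC SFA and 0.271 and 0.247 in TAC SFA-EAA. The 4 TAC libraries had the lowest ratios. The log2 ratio differed by -0.29 (exact p = 0.0286, adjusted over the 8 ratio tests 0.229), and by -0.25 with GC-corrected values (exact p = 0.286). The same limit on Mpc1 holds here. The other 7 tests, of Pdk4 to Pdk2, Suclg2 to Sucla2 and Idh2 to Idh3a for TAC and diet and of Mpc2 to Mpc1 for diet, gave exact p-values from 0.143 to 0.971 as deposited.

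Of 64 further genes around the pathway (other enzymes and carriers, cofactor genes and regulators), 61 were tested, and Got1l1, Csl and Fgf21 were not. Under SFA, TAC gave negative log2 fold changes in 48 of 61, with a median of -0.19, and 1 fell as deposited (all genes called lower, 0.414%). Gpt2, the mitochondrial alanine aminotransferase that links alanine to pyruvate, stood at 212 and 195 in sham SFA, 237 and 262 in sham SFA-EAA, 129 and 102 in TAC SFA and 152 and 153 in TAC SFA-EAA. All 4 TAC libraries were below all 4 sham libraries (log2 fold change under SFA -0.82, SE 0.16, adjusted p = 0.0479, and averaged over diets -0.76, SE 0.11, adjusted p = 0.0122). Slc25a42, the mitochondrial coenzyme A carrier, fell in the average (-0.62, SE 0.13, adjusted p = 0.0434). With GC-corrected values 10 of 61 fell and 1 rose under SFA (all genes called lower, 2.6%, and higher, 2.42%). The 4 with the smallest p were Gpt, the cytosolic alanine aminotransferase (-1.19, SE 0.15), Slc25a42 (-0.91, SE 0.14), the lactate dehydrogenase subunit Ldhb (-0.63, SE 0.10) and the D-lactate dehydrogenase Ldhd (-0.72, SE 0.12). The 1 that rose was the hypoxia factor Hif1a (0.48, SE 0.11, adjusted p = 0.0326).

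On the SFA-EAA diet 0 of the 61 were called in TAC hearts against sham, with 4 at an unadjusted p under 0.05 as deposited and 14 with GC-corrected values. Of all 16432 genes, 1408 and 1882 had such a p. Between diets in TAC hearts 0 were called as deposited, with 15 of the 61 and 2476 of all genes at an unadjusted p under 0.05. With GC-corrected values 6 rose on SFA-EAA (all genes called higher, 1.18%). The 4 of these with the smallest p were Ldhb (0.59, SE 0.10), Gpt (0.85, SE 0.15), the acetyl-CoA synthetase Acss1 (0.66, SE 0.12) and the transhydrogenase Nnt (0.54, SE 0.10). Between diets in sham hearts 0 were called as deposited, with 10 of the 61 and 2437 of all genes at an unadjusted p under 0.05. With GC-corrected values 1 rose (all genes called higher, 0.0243%), the transcription factor Foxo3 (0.78, SE 0.10, adjusted p = 0.0391). Foxo3 stood at 449 and 457 in sham SFA against 678 and 689 in sham SFA-EAA. In TAC hearts it stood at 483 and 512 on SFA and at 513 and 508 on SFA-EAA, so the diets overlapped there.

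Markers of some other cell types differed between the same groups. The 8 fibroblast markers summed to 5753 and 4954 in sham SFA, 5079 and 4402 in sham SFA-EAA, 10453 and 15050.4 in TAC SFA and 5143 and 6637 in TAC SFA-EAA. TAC SFA, the group with the lowest member values, was the highest here, and 3 of 8 markers (Col1a2, Col3a1 and Postn) rose under SFA as deposited and 6 of 8 with GC-corrected values. Of all genes, 0.834% and 2.42% were called higher. Between diets in TAC hearts 1 of 8 fell on SFA-EAA as deposited (Col1a2) and 5 of 8 with GC-corrected values. Of all genes, 0.0365% and 0.773% were called lower. The 8 macrophage markers summed to 1169 to 1698 in sham and 1769 to 2202 in TAC libraries, and averaged over diets 1 of 8 rose as deposited (C1qb) and 6 of 8 with GC-corrected values. Of all genes, 1.38% and 3.04% were called higher. The 12 cardiac muscle markers summed to 486087 and 489512 in sham SFA and to 407647 and 431297 in TAC SFA. They summed to 412866 and 435466 in sham SFA-EAA and to 491577 and 377867 in TAC SFA-EAA. With TAC under SFA, 1 was lower (Tnni3) and 1 higher (Myom1) by GC-corrected values, and 0 were called as deposited. Of all genes, 2.6% were called lower and 2.42% higher by GC-corrected values. In the sum of these 12 markers sham SFA-EAA, the group with the highest member sums, overlapped TAC SFA. The TAC SFA-EAA libraries were the highest and the lowest of the 8. All marker sums are of deposited values without the GC correction. Their relation to the libraries' trends with GC content was not tested. The 6 smooth muscle markers summed to 1323 and 1781 in sham SFA, 1690 and 1537 in sham SFA-EAA, 1388 and 2031 in TAC SFA and 1167 and 984 in TAC SFA-EAA. Both TAC SFA-EAA libraries were the lowest of the 8 in this sum. The sums of endothelial markers (3898 to 4576) and adipocyte markers (53.4 to 137) are given as ranges over the 8 libraries. The 5 erythroid markers summed to 2431 and 2531 in sham SFA, 1547 and 1953 in sham SFA-EAA, 3137 and 3495 in TAC SFA and 3724 and 1037 in TAC SFA-EAA. Under SFA this sum was higher in both TAC libraries than in both sham libraries, with 0 markers called (1 at an unadjusted p under 0.05, limma). Of all genes, 2197 of 16432 had such a p as deposited. The part of these shifts in the member values was not tested.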

How the data were processed

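Polyadenylated RNA of the left ventricle was sequenced from a stranded library kit, per the labels' protocols. Per the submitters' processing notes the authors used STAR 2.5, the build GRCm38 and edgeR. Which counter, annotation release, strand setting or filter they chose is not given in the sources used here. The deposited unit is a normalized signal per gene, not whole reads, so no test for counts was run.

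The members, gene lists, tests and the GC correction were chosen with earlier results of these data known. Limma 3.58.1 (R 4.3.3; limma-trend) was fitted to log2(value + 1) of the 16432 genes that reached 1 in 2 or more libraries, of 49671 listed (29103 at 0 in every library), with 1 mean per group. Tests were two-sided, Benjamini-Hochberg adjusted over all genes, at a threshold of 0.05. Because 1 was added, a log2 fold change of a gene with low values is too small. The GC correction subtracts, per library, a loess curve (span 0.3, fitted on genes with a mean of at least 20) of the deviation from the gene mean on the GC content of the longest GENCODE transcript, known for 99.8% of tested genes. Per-kilobase levels divide by the length in the deposited table.

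Values per library are given for members called in any comparison on either scale, the 4 kinases, both carrier genes, and, of role groups without such a member, the 1 with the smallest p. Of the wider list, up to 4 called genes per comparison are named. Some genes are not reported here. Promoter sequences come from RefSeq. Scripts were tested on simulated data. Python 3.11.15, pandas 2.3.3, scipy 1.17.1 and matplotlib 3.10.9 were also used.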

Additional observations from a re-analysis of the deposited data

How the results depend on the processing

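The alternatives were the settings below, and none was added later. Called members for TAC under SFA are given with the share of all genes called in either direction. They were 1 (1.25%) as deposited, 0 (0.913%) with a pseudocount of 0.25, 0 (0.958%) with no filter and 3 (2.47%) with a filter of 5. They were 2 (1.3%) with median-of-ratios scaling, 10 (4.43%) with library weights and 11 (5.6%) with only the compared groups. With the GC correction they were 14 (5.02%), and with GC and length 13 (5.03%). The median was -0.24 with quantile normalization and -0.37 with the GC correction. Averaged over diets, the called members were 3 (2.11% of all genes) as deposited, 0 (0.272%) with no filter and 5 (3.5%) with a filter of 5. They were 14 (6.19%) with the GC correction and 15 (6.2%) with GC and length, and the median was -0.20 with quantile normalization. For diet in sham hearts 2 were called, both higher, with only the compared groups, where 6.45% of all genes were called in either direction and 2.11% higher, and the median was 0.17 with median-of-ratios scaling and 0.10 with GC and length. For diet in TAC hearts 3 were called with the GC correction (1.95% of all genes) and 2 with GC and length (1.66%). The median there was 0.22 with quantile normalization and 0.29 with median-of-ratios scaling. The interaction median was 0.094 with quantile normalization and 0.16 with the GC correction, and no setting called a member for the interaction or for TAC under SFA-EAA. The cause of these shifts was not tested.

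Replicate numbers do not mark a pairing in the labels, and deviations of same-numbered libraries correlated between -0.27 and 0.04. With a replicate block the called members were 0 for TAC under SFA and 0 for the average, where 0.584% and 0.895% of all genes were called. With the block and the GC correction they were 9, 10 and, for diet in TAC hearts, 1, where 4.14%, 4.98% and 1.1% of all genes were called. The medians were then -0.37 for TAC under SFA and 0.16 for the interaction.

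Leaving out 1 library in turn gave 0 to 14 called members and medians of -0.35 to -0.29 for TAC under SFA (GC-corrected 0 to 20, -0.37 to -0.29), 0 to 15 and -0.26 to -0.20 for the average (3 to 20, -0.26 to -0.22), 0 to 13 and 0.24 to 0.29 for diet in TAC hearts (0 to 6, 0.23 to 0.28), and 0 to 2 and 0.11 to 0.14 for diet in sham hearts (0, 0.086 to 0.13). For TAC under SFA-EAA the medians were -0.18 to -0.13 (-0.18 to -0.10) and for the interaction 0.11 to 0.19 (0.10 to 0.20), with 0 called. For TAC under SFA, the average and diet in TAC hearts, the share of all genes called also changed with the library left out. It mostly moved in the same direction as the counts of called members. These counts alone therefore do not set the members apart from all genes. The diet effect on Pdk2 in TAC hearts ran from -0.15, without TAC SFA-EAA replicate 1, to 0.43, and with GC-corrected values from 0.42 to 0.58.

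Of the ratios, the GC correction gave -0.37 for Pdk4 to Pdk2 and 0.13 for Idh2 to Idh3a between diets, both opposite in sign to the values as deposited (0.16 and -0.24). With 1 library left out the diet value of Pdk4 to Pdk2 ran from -0.081 to 0.47 (negative, at -0.081 and -0.07, without sham SFA replicate 2 and sham SFA-EAA replicate 2) and the TAC value from 0.00 to 0.54. Suclg2 to Sucla2 ran from -0.10 to 0.082 for TAC (-0.10, -0.02 and -0.02 without sham SFA-EAA replicate 1, TAC SFA replicate 2 and TAC SFA-EAA replicate 1) and from -0.27 to -0.12 for diet. Idh2 to Idh3a ran from 0.02 to 0.23 for TAC and from -0.37 to -0.16 for diet, and Mpc2 to Mpc1 from -0.35 to -0.25 and from -0.21 to -0.06. With 2 libraries a group, a group reduced to 1 is assumed to vary like the others.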
